A study of Mus musculus with 20 samples.

Results

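Brain cholesterol is made in place, because the lipoproteins that carry it in blood do not cross into the brain. Its synthesis runs from acetyl-CoA through mevalonate, isoprenoids and squalene to the sterol ring, and in most cells the genes of these enzymes are switched on together by the SREBP transcription factors when membrane sterol is low. In the adult brain the main users are myelin-forming oligodendrocytes and astrocytes, and surplus cholesterol leaves mainly after neurons hydroxylate it to an oxysterol that passes the blood-brain barrier.

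RNA-seq levels of 7 genes of this route were measured in the hippocampus and neocortex of WT and miR-324-null mice, out of 35580 genes summed from the deposited transcripts. The genes were set by name, and the estimated counts and TPM of all their transcripts were added up. Hmgcs1, Idi1, Fdft1, Sqle, Cyp51 and Dhcr7 are synthesis enzymes, and Cyp46a1 is the neuronal enzyme of removal. Each of the 4 groups held 5 libraries, numbered 1 to 5, from male mice aged 13.5 months whose strain is given as C57BL/6J. The miR-324-null mice carry a global CRISPR/Cas9 deletion at the Mir324 locus. The founders were a mix of C57BL/6 and CBA/ca, and both lines, WT and null, were bred from their descendants after backcrossing to C57BL/6J. The cortical samples, labelled as cerebral cortex, are called neocortex here as in the study. The loss of miR-324 itself was not checked here, since these mRNA libraries do not measure mature miRNAs. Nothing in the labels ties a library number to an animal in both tissues.

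Library totals lay between 12752439 and 19617765 estimated counts, and each of the 7 genes had at least 383 counts in every library. The tissue markers followed the labels: in WT mice 8 of 8 hippocampal neuron markers were higher in the hippocampus and 7 of 8 neocortical neuron markers were lower. Some libraries stood apart. The summed level of 5 choroid plexus markers was 4516 CPM in WT hippocampus 3 and 3881 CPM in miR-324-null hippocampus 5, against 40.1 to 138 CPM in the 8 other hippocampal libraries. In miR-324-null neocortex 2 it was 801 CPM, against 15.5 to 64.1 CPM in the other neocortical libraries. Striatum markers summed to 206 to 509 CPM in miR-324-null and to 121 to 331 CPM in WT neocortex. In miR-324-null neocortex 1 to 4, hippocampal neuron markers summed to 241 to 293 CPM, against 136 to 172 CPM in WT neocortex, and neocortical neuron markers summed to 620 to 752 CPM, against 857 to 948 CPM. In library 5 of that group the sums were 135 and 1063 CPM, just below the WT range for the hippocampal list and above it for the neocortical list. The number of the 7 genes called was checked with each single library left out. Other values are given without these libraries only where stated.

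The first of the 7 genes in the pathway, Hmgcs1 (ENSMUSG00000093930; GRCm38 chr13:119690379-119708260, plus strand), encodes the cytosolic enzyme that makes HMG-CoA. Idi1 (ENSMUSG00000058258; chr13:8885501-8892451, plus strand) interconverts the activated isoprene units. Fdft1 (ENSMUSG00000021273; chr14:63145150-63179578, minus strand) is squalene synthase, the first enzyme committed to sterols. Sqle (ENSMUSG00000022351; chr15:59315077-59331192, plus strand) adds the oxygen to squalene that ring closure needs. Cyp51 (ENSMUSG00000001467; chr5:4081145-4104746, minus strand) removes a methyl group from lanosterol, and Dhcr7 (ENSMUSG00000058454; chr7:143823145-143848410, plus strand) carries out the last reduction to cholesterol. Cyp46a1 (ENSMUSG00000021259; chr12:108334381-108362234, plus strand) hydroxylates cholesterol. All 7 are annotated as protein-coding.

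The sequences of the deleted miRNA are shown because its seed, bases 2 to 8, is what target messages pair with. RefSeq places both mature arms on the plus strand of GRCm38.p6 chromosome 11, and the seed is in capitals.
mmu-miR-324-5p (chr11:70012060-70012082): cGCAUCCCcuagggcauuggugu
mmu-miR-324-3p (chr11:70012095-70012114): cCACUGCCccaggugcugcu

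The reverse complement of the 5p seed (GGGATGC) was in the annotated 3′UTR of 0 of the 7 genes, and in that of 9.59% of the 14294 tested genes with such a UTR. That of the 3p seed (GGCAGTG) was in the 3′UTRs of Fdft1 and Hmgcs1, and in those of 17.2% of the same 14294 genes. The matches lie 701 bases into the 3′UTR of Fdft1 (GRCm38 chr14:63146043-63146049, minus strand) and 708 bases into that of Hmgcs1 (chr13:119707186-119707192, plus strand). They are shown with flanking bases, the match in capitals, and neither is followed by the A of an 8-base site.
Fdft1: taaggaaagcaGGCAGTGcggtcacctctc
Hmgcs1: caggtctccgtGGCAGTGctcagcagcact
A match is a description of these letters and was not tested as a site. The study cites a further reported form of the 3p arm that alters the seed, and only the seed shown above was searched.

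RefSeq promoters of GRCm38.p6, running from 250 bases before to 50 after a start, were at hand for 5 of the 7 genes (Hmgcs1, Idi1, Cyp51, Dhcr7 and Cyp46a1), and entries for Fdft1 and Sqle were not found. A sterol regulatory element (TCACNCCAC), the kind of motif that SREBPs bind, was searched on both strands together with the CCAAT box (CCAAT) that often lies near it and the GC box (GGGCGG) that Sp1 binds. The element was found in 1.24% of the 32851 promoters. Among the 5 genes it was in that of Hmgcs1 alone, where its first base lies 137 bases before the start. Only this pattern was searched, so sterol elements that depart from it would be missed. CCAAT was found in 37.4% of all promoters and in those of all 5 genes, with 4 matches in Hmgcs1 and 2 in Idi1. GGGCGG was found in 35.7% of all promoters and in those of all 5 genes, with 6 matches in Cyp46a1, the most among them. Of the 3 Dhcr7 starts listed, 1 has 2 CCAAT and 3 GGGCGG matches, and another has none of either. The promoters of Hmgcs1 and Cyp46a1 are shown because the former holds the sterol element and the latter the most GC boxes, and matches to the motifs on either strand are in capitals.
Hmgcs1 (chr13:119690101-119690400, plus strand): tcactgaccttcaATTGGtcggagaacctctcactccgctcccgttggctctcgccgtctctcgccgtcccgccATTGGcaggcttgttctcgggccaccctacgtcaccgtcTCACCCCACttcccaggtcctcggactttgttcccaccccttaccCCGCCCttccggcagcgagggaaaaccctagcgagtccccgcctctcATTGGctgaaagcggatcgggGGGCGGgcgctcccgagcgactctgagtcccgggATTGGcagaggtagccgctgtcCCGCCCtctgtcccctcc
Cyp46a1 (chr12:108334066-108334365, plus strand): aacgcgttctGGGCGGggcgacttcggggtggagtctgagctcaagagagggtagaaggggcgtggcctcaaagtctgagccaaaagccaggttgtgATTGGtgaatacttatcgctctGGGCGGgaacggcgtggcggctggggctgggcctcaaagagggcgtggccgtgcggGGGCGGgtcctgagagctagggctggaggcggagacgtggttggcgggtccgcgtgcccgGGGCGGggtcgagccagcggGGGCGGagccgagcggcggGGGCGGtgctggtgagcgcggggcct

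Compared per length, as TPM (a transcript's abundance scaled for its length and the depth), Cyp46a1 and Hmgcs1 were the most abundant of the 7 genes in each group, and Fdft1 came next. In WT hippocampus Cyp46a1 stood at 121 ± 8.24 TPM (mean ± SD, n = 5) and Hmgcs1 at 111 ± 5.76 TPM, with overlapping ranges. In WT neocortex the levels were 177 ± 9.89 TPM for Cyp46a1 and 147 ± 13.6 TPM for Hmgcs1, again with an overlap. Fdft1 was clear of its neighbours in the order in all 4 groups, at 43.5 ± 2.36 TPM in WT hippocampus and 56.1 ± 3.03 TPM in WT neocortex. The 4 others (Sqle, Dhcr7, Cyp51 and Idi1) lay together, between 22.2 and 28.7 TPM on average in WT hippocampus and between 27.2 and 31.9 TPM in WT neocortex, and neighbours in that order overlapped in every group.

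Most of each gene's TPM came from its leading transcript. The share was 97.8% for Idi1-201, 96.0% for Sqle-201, 90.8% for Cyp46a1-201, 88.7% for Cyp51-201 and 84.4% for Hmgcs1-201 on average over the 20 libraries. Fdft1 was divided between Fdft1-201, at 71.4%, and Fdft1-204, at 22.5%, both protein-coding. Dhcr7 was the least settled. Dhcr7-202 held 64.5% on average, while the 230-base processed transcript Dhcr7-213 held 20.5%, from 0% to 57.0% in single libraries of miR-324-null hippocampus. A short transcript gains much TPM from few reads, and the TPM of Dhcr7 varied accordingly, at 28.7 ± 6.23 TPM in WT hippocampus against 31.3 ± 0.970 CPM (n = 5 each). For Cyp51 the 528-base Cyp51-202 held 14.9% ± 8.14 of the TPM in WT hippocampus and 6.78% ± 5.63 in miR-324-null hippocampus. Single libraries overlapped, at 3.33% to 24.3% and 0% to 13.4%. In the neocortex the order was the opposite, at 9.20% ± 4.73 in WT and 13.4% ± 10.3 in null mice. These shares were not tested.

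**Figure D1:**
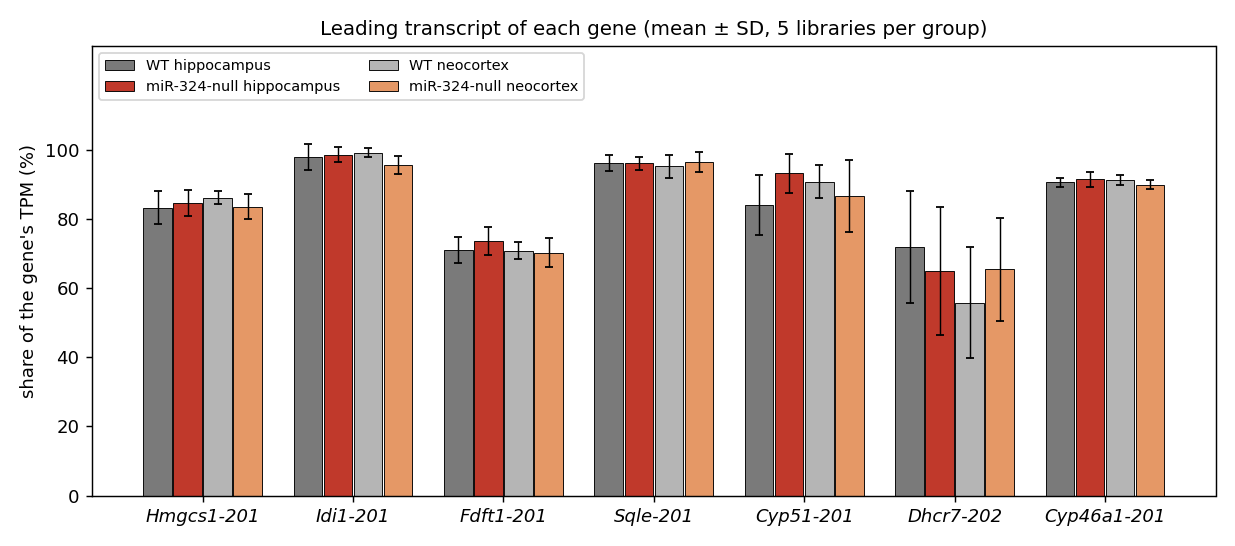
Share of each gene's TPM held by its leading transcript, in percent, as bars of the mean with SD over the 5 libraries of each group. The shares of Idi1, Sqle and Cyp46a1 lie near or above 90% in every group, and that of Dhcr7-202 has the widest spread.

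Between genotypes and tissues, levels are given as TMM-normalized CPM (counts scaled to the size and composition of each library). CPM are not corrected for transcript length, so a shift between transcripts of unlike length can change them. Each comparison was fitted with edgeR's quasi-likelihood test over all genes tested, with Benjamini-Hochberg adjustment, and a gene was called at an adjusted p of at most 0.05. These are bulk samples, in which fewer cells of a type and less RNA per cell cannot be told apart.

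**Figure D2:**
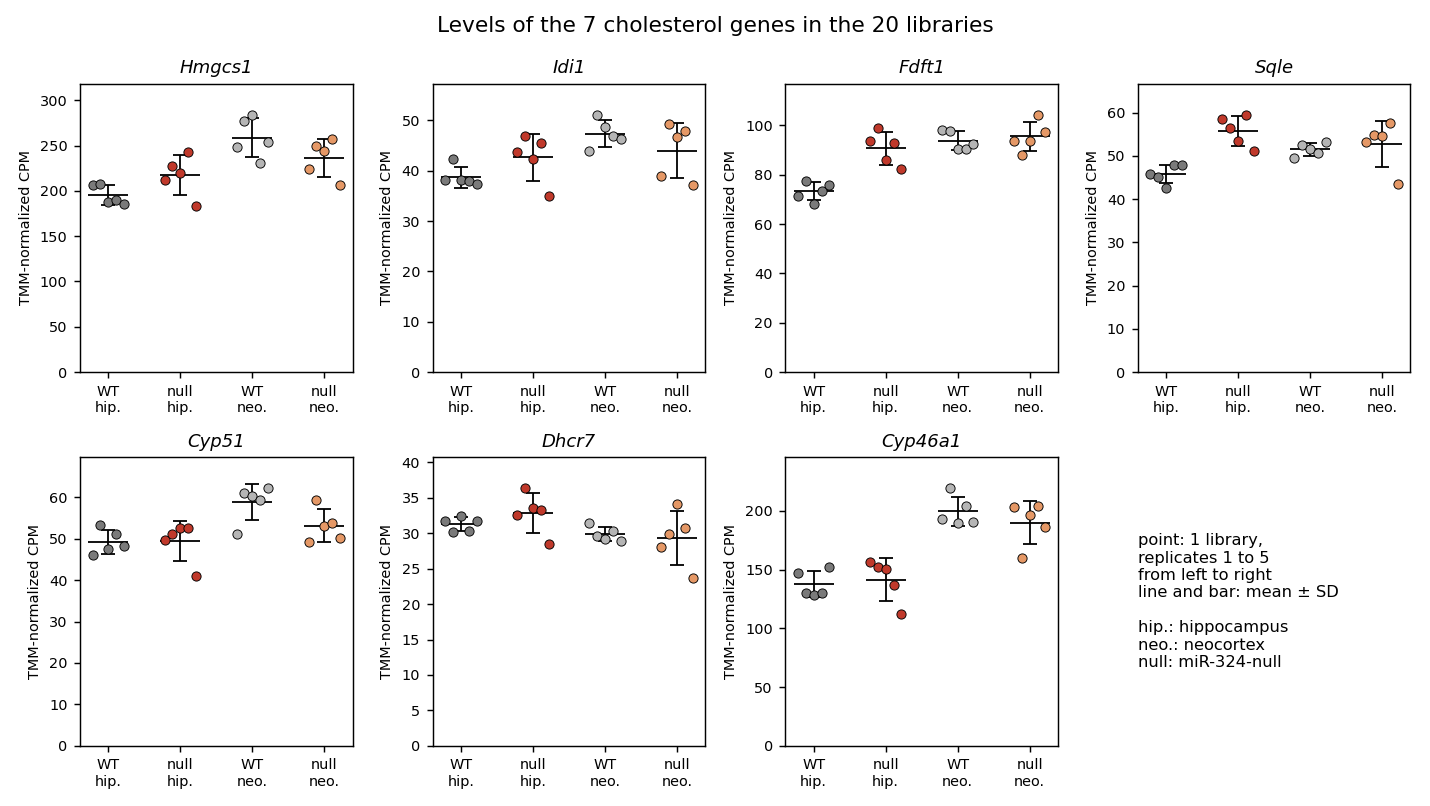
TMM-normalized CPM of the 7 genes in the 20 libraries, a panel per gene with its axis from 0. Points are libraries, and lines with bars are mean ± SD of the 5 libraries per group. In the hippocampus the miR-324-null points of Fdft1 and Sqle lie above all WT points, and Cyp46a1 is lower in the hippocampus than in the neocortex in both genotypes.

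The first comparison sets miR-324-null against WT mice within each tissue. In the hippocampus, squalene synthase and squalene epoxidase, which carry out consecutive steps, were the members with the largest differences. Sqle lay 21.8% and Fdft1 23.7% higher in miR-324-null mice, with no overlap between genotypes, but neither passed the test. The other 5 genes overlapped between genotypes.

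Fdft1 stood at 71.5, 77.5, 68.0, 73.4 and 75.8 CPM in WT hippocampus 1 to 5 and at 93.5, 98.8, 85.9, 92.9 and 82.1 CPM in miR-324-null hippocampus 1 to 5. Every null library was thus above every WT library, and null library 5 was the lowest of the null group. The means were 73.3 ± 3.70 CPM in WT and 90.6 ± 6.59 CPM in null mice (SD, n = 5), a log2 fold change of 0.31 ± 0.061 (SE, adjusted p = 0.100, edgeR's quasi-likelihood test).

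Sqle, the enzyme that acts on the product of Fdft1, stood at 45.8, 45.1, 42.6, 47.8 and 47.9 CPM in WT hippocampus and at 58.4, 56.5, 53.4, 59.6 and 51.2 CPM in miR-324-null hippocampus. Again the genotypes did not overlap and null library 5 was the lowest of its group. The means were 45.8 ± 2.17 CPM and 55.8 ± 3.47 CPM, a log2 fold change of 0.28 ± 0.058 (adjusted p = 0.105, edgeR's quasi-likelihood test).

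Hmgcs1, at the head of the pathway, ranged from 185 to 207 CPM in WT and from 183 to 243 CPM in null hippocampus, and 4 of 5 null libraries were above the highest WT library. Its log2 fold change was 0.15 ± 0.072. Idi1 ranged from 37.3 to 42.4 CPM and from 34.9 to 46.8 CPM, with a log2 fold change of 0.14 ± 0.078. For both, null library 5 lay below every WT library. Dhcr7 had the same layout at a smaller size, from 30.2 to 32.5 CPM in WT and from 28.5 to 36.3 CPM in null mice, with a log2 fold change of 0.07 ± 0.066. Cyp51, which demethylates lanosterol, had means of 49.3 ± 2.90 and 49.5 ± 4.82 CPM. Cyp46a1 had means of 137 ± 11.1 and 142 ± 18.0 CPM. The adjusted p-values of these 5 genes lay between 0.464 and 0.989 (edgeR). Without miR-324-null hippocampus 5 the log2 fold changes were 0.21 for Hmgcs1, 0.20 for Idi1, 0.12 for Dhcr7, 0.11 for Cyp46a1 and 0.06 for Cyp51, with adjusted p-values between 0.228 and 0.674 (edgeR).

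By this test 0 of the 7 genes were called, against a background of 0.115% of the 14796 genes tested. Before adjustment 2 genes, Fdft1 and Sqle, had p at or under 0.05, and without miR-324-null hippocampus 5 there were 4, with Hmgcs1 and Idi1. Of all genes tested, 1635 of 14796 were at that unadjusted level by edgeR, and 1895 of 14851 without that library. All 7 log2 fold changes were above 0 with a median of 0.14, where the median of all genes tested was 0.00. Nonoverlapping groups with null mice higher were found for 2 of the 7 and for 1.37% of all genes tested.

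The call of Fdft1 and Sqle depended on the tool. DESeq2's Wald test called both, with adjusted p-values of 0.0015 and 0.0047, at a background of 0.366% of genes called higher in null mice. Both were also called by DESeq2 with a length offset (adjusted p 0.048 for Fdft1 and 0.019 for Sqle, background 0.195%). In a fit of all 20 samples edgeR called both too (adjusted p 0.012 and 0.041, background 0.26%). Without miR-324-null hippocampus 5, edgeR called Fdft1 (log2 fold change 0.34, adjusted p = 0.0488, background 0.0673%) and not Sqle (0.31, adjusted p = 0.068). With both libraries that were high in choroid plexus markers left out, the log2 fold changes were 0.31 for Fdft1 and 0.29 for Sqle, with edgeR's adjusted p-values of 0.125 and 0.184. With a correction for transcript length in edgeR, that of Fdft1 was 0.25 and that of Sqle 0.28.

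Cell type markers were also compared between the genotypes in the hippocampus. Of 8 neuron markers, 6 had log2 fold changes above 0 and 2 below, with a median of 0.09. Their sums did not overlap, at 5630 to 6198 CPM in WT and 6233 to 6590 CPM in null mice. Those of 4 endothelial markers were 194 to 238 CPM in WT, 162 to 172 CPM in null libraries 1 to 4 and 227 CPM in null library 5. All 10 oligodendrocyte markers had log2 fold changes below 0, with a median of -0.11 and overlapping sums. Of these 3 lists 0 markers were called by edgeR or DESeq2. By edgeR 3 neuron, 2 endothelial and 0 oligodendrocyte markers had an unadjusted p at or under 0.05, beside 1635 of all 14796 genes. Also below 0 were 6 of 6 microglia, 6 of 6 striatum and 6 of 8 astrocyte markers. The same held for 7 of 8 hippocampal neuron, 6 of 8 neocortical neuron and 4 of 4 choroid plexus markers. In these lists 0 were called by either tool, and 1 striatum and 1 astrocyte marker reached the unadjusted level. The part of all these markers in the values of Fdft1 and Sqle was not tested.

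Fdft1 shares 774 bases at its 3′ end with Ctsb on the opposite strand, and Cyp51 shares 166 with Akap9. The strand setting of the counting is not given in the sources used here, so reads of these stretches could be assigned to either gene. In the hippocampus the log2 fold change of Ctsb was 0.01 between genotypes, at an adjusted p of 0.983 (edgeR). Processed pseudogenes near-identical to Fdft1 (Gm6781) and Idi1 (Gm13502 and Gm35570) had at most 0.671 CPM in any library.

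In the neocortex the genotypes overlapped in all 7 genes. Fdft1 stood at 98.0, 97.5, 90.6, 90.5 and 92.4 CPM in WT and at 93.8, 88.1, 93.6, 104 and 97.5 CPM in miR-324-null neocortex, a log2 fold change of 0.03 ± 0.051. Sqle stood at 49.5, 52.5, 51.5, 50.8 and 53.1 CPM in WT and at 53.2, 54.7, 54.5, 57.6 and 43.5 CPM in null mice. For Sqle, null libraries 1 to 4 were above all WT libraries and library 5 was below them, with a log2 fold change of 0.04 ± 0.069. Without library 5 it was 0.11 ± 0.045 (adjusted p = 0.232, edgeR), with an unadjusted p of 0.035.

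Cyp51 had the largest difference, with 58.8 ± 4.40 CPM in WT and 53.1 ± 3.97 CPM in null neocortex and a log2 fold change of -0.14 ± 0.066. Those of Hmgcs1 and Idi1 were -0.12 ± 0.073 and -0.10 ± 0.082, and -0.08 and -0.04 without null library 5. Cyp46a1 and Dhcr7 were at -0.06 ± 0.069 and -0.02 ± 0.083, and Dhcr7 turned to 0.05 without that library. None of the 7 was called by edgeR (adjusted p-values between 0.424 and 0.953) or by DESeq2, and the background was 0.315% of 14930 genes. Of the 7, 0 had an unadjusted p at or under 0.05, as 1822 of the 14930 genes did by edgeR. Without miR-324-null neocortex 5, edgeR again called 0 of the 7, while the share called of all genes rose to 3.76% of 15071. Then 1 of the 7, Sqle, had an unadjusted p at or under 0.05, beside 2736 of the 15071 genes. The hippocampal and neocortical marker sums of null libraries 1 to 4 differed from WT as given above, and their part in these values was not tested.

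**Figure D3:**
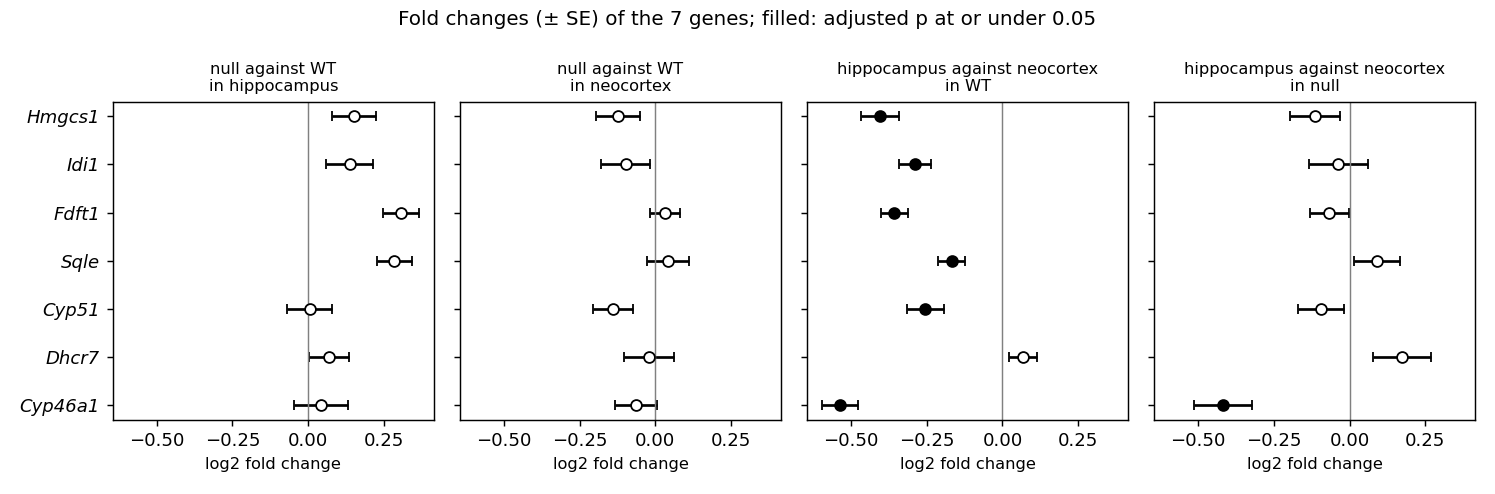
Log2 fold changes of the 7 genes with SE in the 4 comparisons, filled where the adjusted p was at most 0.05. No gene is filled for null against WT in either tissue, 6 are filled for hippocampus against neocortex in WT mice, and Cyp46a1 alone is filled in null mice.

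Between tissues, 6 of the 7 genes were lower in the hippocampus than in the neocortex of WT mice. The largest difference was that of Cyp46a1, followed by Hmgcs1 and Fdft1, and Dhcr7 was the exception. Among all 14894 genes tested, 18% were called lower in the hippocampus.

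Cyp46a1, the neuronal hydroxylase, stood at 147, 130.2, 128, 130.2 and 152 CPM in WT hippocampus 1 to 5 and at 193, 219, 190.0, 205 and 191 CPM in WT neocortex 1 to 5. No library of the hippocampus reached the lowest of the neocortex. The log2 fold change was -0.54 ± 0.060, or 31.1% lower in the hippocampus (adjusted p = 1.3e-05, edgeR's quasi-likelihood test).

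Hmgcs1 stood at 207, 207, 187, 190.2 and 185 CPM in WT hippocampus and at 248, 277, 284, 230.3 and 254 CPM in WT neocortex. These values did not overlap either, and the log2 fold change was -0.40 ± 0.062 (adjusted p = 0.00017, edgeR). For Fdft1, whose values are given above, all 5 hippocampal libraries were below the lowest of the neocortex, with a log2 fold change of -0.36 ± 0.046 (adjusted p = 4.3e-05, edgeR). Its neighbour Ctsb was also lower in the hippocampus, by a log2 fold change of -0.32.

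Idi1 was at 38.7 ± 2.08 CPM in WT hippocampus and 47.4 ± 2.73 CPM in WT neocortex, a log2 fold change of -0.29 ± 0.054 (adjusted p = 0.00092, edgeR), without overlap. Sqle had the smallest difference among those called, -0.17 ± 0.045 (adjusted p = 0.011, edgeR), again without overlap. Cyp51 was called with overlapping groups, at 49.3 ± 2.90 against 58.8 ± 4.40 CPM (log2 fold change -0.25 ± 0.061, adjusted p = 0.0049, edgeR). Hippocampal levels below all neocortical ones were thus found for 5 of the 7 genes, and for 13.3% of all genes tested.

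Dhcr7, the last enzyme of the pathway, was at 31.3 ± 0.970 CPM in the hippocampus and 29.9 ± 1.01 CPM in the neocortex of WT mice. Its log2 fold change of 0.07 ± 0.046 was not called (adjusted p = 0.286, edgeR). When transcript length was taken into account its direction turned, to -0.10 in edgeR, and Cyp51 was not called (-0.14, adjusted p = 0.283), which left 5 of the 7 genes called. Of 8 neuron markers, 5 were lower in WT hippocampus and 0 higher, with sums of 5630 to 6198 CPM against 7662 to 8239 CPM. The 10 oligodendrocyte markers, from 4358 to 7775 CPM in sum in WT hippocampus and from 4863 to 6121 CPM in WT neocortex, were not called in either direction. Of 8 astrocyte markers, 4 (Gfap, Aqp4, Gja1 and Slc1a3) were higher and 1 (Aldh1l1) lower in WT hippocampus, with overlapping sums of 4929 to 6154 against 4821 to 5504 CPM. Of 6 striatum markers 3 were lower, with sums of 73.8 to 105 against 121 to 331 CPM. The part of these cell types in the tissue difference was not tested.

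In miR-324-null mice only Cyp46a1 of the 7 genes was called between tissues. It stood at 156, 152, 151, 137 and 112 CPM in the hippocampus and at 203, 159.9, 197, 204 and 186 CPM in the neocortex. The tissues did not overlap, although hippocampal library 5 and neocortical library 2 lay far below the rest of their groups. The log2 fold change was -0.42 ± 0.096, or 25.1% lower in the hippocampus (adjusted p = 0.0062, edgeR's quasi-likelihood test). Without neocortical library 2, which was high in choroid plexus markers, it was -0.48. With each single library left out in turn it ranged from -0.48 to -0.34, with adjusted p-values of at most 0.018 (edgeR).

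The 6 synthesis genes overlapped between the tissues of null mice. Fdft1 was at 90.6 ± 6.59 CPM in the hippocampus and 95.5 ± 6.00 CPM in the neocortex, a log2 fold change of -0.07 ± 0.064. For Sqle the sign was opposite to that in WT mice, at 0.09 ± 0.076. Hmgcs1, Cyp51 and Idi1 were at -0.11 ± 0.083, -0.10 ± 0.076 and -0.04 ± 0.097, and Dhcr7 was at 0.17 ± 0.095.

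The background in null mice was 13.6% of 15033 genes called lower in the hippocampus, and 11% were lower without overlap. Without miR-324-null hippocampus 5 the count stayed at 1 of 7, Cyp46a1. For each of the 7 genes the SD over the hippocampal libraries was larger in null than in WT mice. It was 22.1 against 10.9 CPM for Hmgcs1 and 18.0 against 11.1 CPM for Cyp46a1. These SDs include null library 5, the lowest of its group in all 7 genes, and are not given without it. Of 8 neuron markers, 4 were lower in the hippocampus of null mice and 0 higher. Their sums were 6233 to 6590 CPM, against 7057 to 8265 CPM in the neocortex. The null neocortex libraries differed from WT in their marker sums. The part of these markers in the tissue values of null mice was not tested.

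A call in WT and none in null mice does not show that the tissue difference depends on genotype, so the difference itself was tested. The interaction, taken as the null-against-WT log2 fold change in the neocortex minus that in the hippocampus, was below 0 for all 7 genes, with a median of -0.24 where the median of all genes was -0.00. It was -0.28 ± 0.078 for Fdft1, -0.28 ± 0.105 for Hmgcs1, -0.25 ± 0.088 for Sqle and -0.24 ± 0.115 for Idi1. None of the 7 was called (adjusted p-values between 0.585 and 0.966, edgeR), nor by DESeq2, and the background was 0.0195% of 15391 genes. Before adjustment these 4 had p at or under 0.05 by edgeR, as did 857 of all 15391 genes. The count was 5 of 7 without miR-324-null hippocampus 5 and 3 of 7 without miR-324-null neocortex 5. Among all genes, 1156 of 15505 and 1423 of 15514 were then at that level. For Cyp51 the interaction of -0.15 turned to 0.06 when transcript length was taken into account.

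The other genes of the pathway, taken from lists, were also described by their counts. Of 15 other cholesterol synthesis enzymes, 0 were called between genotypes in either tissue by edgeR or DESeq2. In the hippocampus 11 of the 15 lay above 0, with a median log2 fold change of 0.08. Of the 15, 4 had an unadjusted p at or under 0.05, beside 1635 of all 14796 genes tested. In the neocortex 6 of 15 lay above 0, with a median of -0.02 and 0 at that unadjusted level, beside 1822 of all 14930 genes.

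Between the tissues of WT mice, 2 of the 15 were called, both lower in the hippocampus (18% of all genes), and 13 of 15 lay below 0 with a median of -0.13. In null mice 2 of the 15 were called, again both lower in the hippocampus (13.6% of all genes). In the interaction 0 of 15 were called by either tool and 2 had an unadjusted p at or under 0.05, beside 857 of all 15391 genes.

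Among the genes of sterol sensing and uptake, 0 were called between genotypes by edgeR or DESeq2, out of 12 tested in hippocampal and 13 in neocortical libraries. An unadjusted p at or under 0.05 was found for 1 and 0 of them, beside 1635 of all 14796 and 1822 of all 14930 genes. Between the tissues of WT mice 3 of 13 were higher and 5 lower in the hippocampus, where 18.1% and 18% of all genes tested were called. Stard4, a carrier of cholesterol inside cells, was at 21.2 ± 3.12 against 31.9 ± 1.44 CPM (log2 fold change -0.59). In null mice 2 were higher and 3 lower (13.8% and 13.6% of all genes), among them Mylip (0.55), a ubiquitin ligase of the LDL receptor, on the higher side. In the interaction 0 of 13 were called by either tool, with 0 at the unadjusted level.

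Of the genes of other sterol turnover and export, 14 were tested and 0 were called between genotypes in hippocampus or neocortex by edgeR or DESeq2. The unadjusted p was at or under 0.05 for 2 in the former tissue and 0 in the latter, at the same unadjusted backgrounds. In the hippocampus their median log2 fold change was -0.09, with 11 of 14 below 0. Between the tissues of WT mice 3 of 14 were higher and 2 lower in the hippocampus, again beside 18.1% and 18% of all genes. Cyp39a1 and Cyp7b1, which both hydroxylate oxysterols, moved in opposite directions, with Cyp39a1 at 1.36 ± 0.393 against 5.13 ± 1.84 CPM (-1.89) and Cyp7b1 at 19.8 ± 2.21 against 7.59 ± 0.593 CPM (1.38). In null mice 4 were higher and 3 lower, at the same background of 13.8% and 13.6%, with Cyp39a1 (-1.60) and Cyp7b1 (1.16) again the largest. The interaction called 0 of 14 by either tool, with 0 at the unadjusted level.

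**Figure D4:**
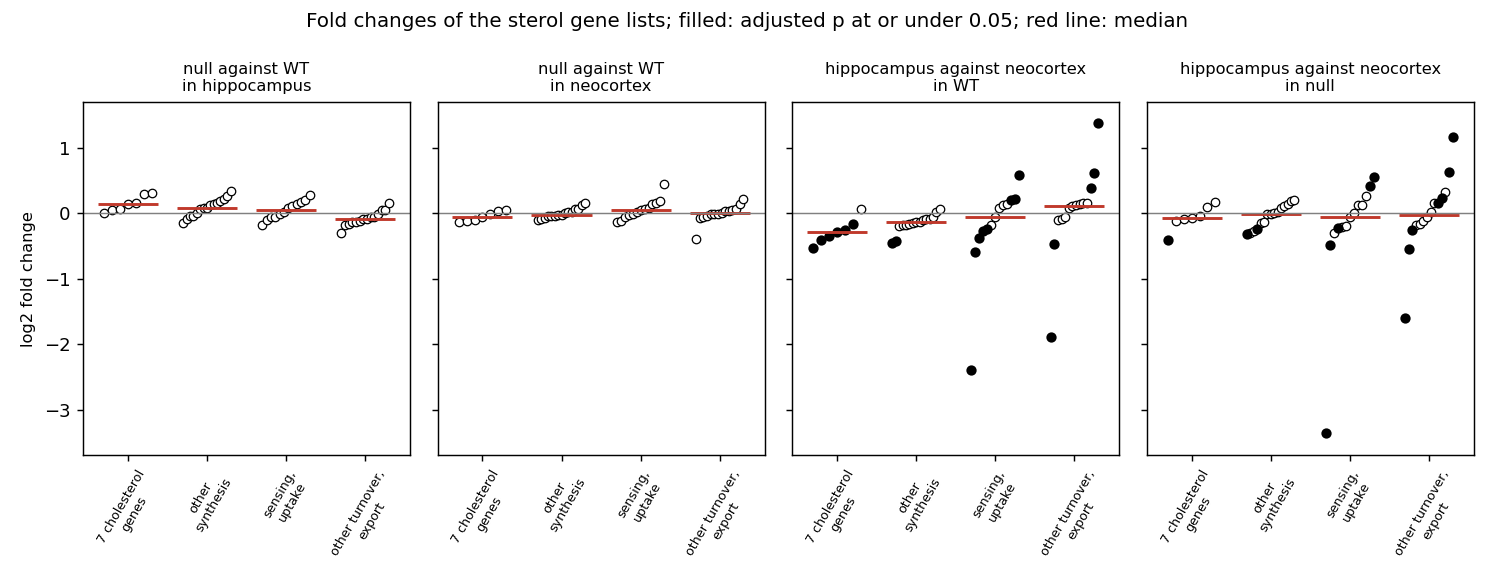
Log2 fold changes of the 7 genes and of the 3 other sterol gene lists in the 4 comparisons, a point per gene, filled where the adjusted p was at most 0.05, with the median of each list as a red line. No point is filled between genotypes, and between the tissues of WT mice 6 of the 7 genes are filled and below 0.

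Within groups the 6 synthesis genes deviated together to different degrees. After the 4 group means were taken from the log2 CPM of the 20 libraries, Pearson's r between pairs of them lay between 0.18 and 0.84 over 15 pairs, with a median of 0.55. Hmgcs1 and Idi1 were the closest pair, and Fdft1 the loosest member, with r of at most 0.35 to the 5 others. With all 20 libraries in, Fdft1 was closer to Cyp46a1, at 0.59 (Spearman's rho 0.53). Cyp46a1 had r between 0.16 and 0.33 to Hmgcs1, Idi1, Sqle and Cyp51 and 0.38 to Dhcr7. All values of a library share its depth, tissue piece and scaling, so these are descriptions.

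The null libraries numbered 5, which the labels do not tie to the same mouse, lay below their group means in most of the 7 genes. Without them, r between pairs of the 6 synthesis genes lay between -0.27 and 0.70 over 18 libraries, with a median of 0.23. That of Fdft1 with the 5 others lay between -0.14 and 0.49. Fdft1 with Cyp46a1 was then at 0.44, below the highest of these. In miR-324-null hippocampus 5 all 7 genes were below the group mean, by 0.12 to 0.33 on the log2 scale, and each was at its lowest of the group. In miR-324-null neocortex 5 the count was 6 of 7, and Hmgcs1, Idi1, Sqle and Dhcr7 were at their lowest. The former library was also high in choroid plexus markers. WT hippocampus 3, which was as well, had 6 of 7 genes below its group mean, with a median deviation of -0.06 against -0.24.

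**Figure D5:**
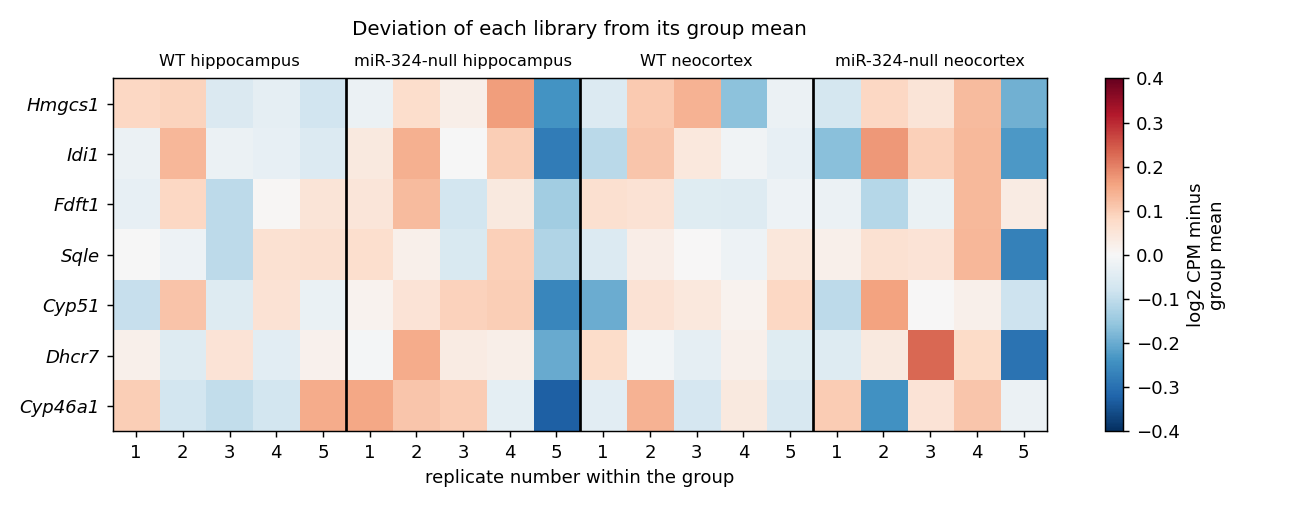
Log2 CPM of the 7 genes in each library minus the mean of its group, as a colour from blue (below) to red (above), with the 5 libraries of each of the 4 groups side by side. All 7 genes are below the group mean in miR-324-null hippocampus 5, and 6 of 7 in miR-324-null neocortex 5.

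With all 20 libraries in, the genes most like the mean of the 6 synthesis genes by the same deviations were Idi1 itself (r = 0.92, rho 0.85, against the mean of the other 5), Lss (0.83, 0.71), Hjurp (0.82, 0.68), Msmo1 (0.82, 0.67) and Aen (0.82, 0.66), out of 15376 genes. Lss closes the sterol ring and Msmo1 oxidizes a methyl group of the sterol. Among the 50 nearest genes were 3 of the 6 synthesis genes and 4 of the 15 other enzymes. Ebp, a sterol isomerase, was at the other end, with r of -0.61. The genes most like Cyp46a1 were Carm1 (r = 0.87, rho 0.85), Evl (0.86, 0.83), Gm20449 (0.84, 0.84), Coq3 (0.82, 0.72) and Camk2n2 (0.81, 0.80), and none of them is on the sterol lists.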

How the data were processed

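The authors prepared stranded mRNA libraries from 20 samples, pseudo-aligned reads to the mouse GRCm38 transcriptome with kallisto and deposited estimated counts and TPM per transcript; the submitters' processing notes name kallisto and DESeq2 without versions, and a human build, whereas the transcript identifiers are of mouse. The strand setting is not given in the sources used here. Of 115270 transcripts 113580 were matched to GENCODE GRCm38 genes and 1690, with at most 0.556% of a library's counts, were left out. Sums per gene were rounded and tested with edgeR 4.0.16 (R 4.3.3, limma 3.58.1): TMM, filterByExpr, quasi-likelihood, Benjamini-Hochberg at 0.05, each pair of groups on its own 10 libraries and the interaction on all 20. Alternatives used DESeq2 1.42.0, length offsets, limma on log2(TPM + 0.5), other filters and samples. Scripts were tested on simulated data. Groups came from sample titles, and p-values measure the spread between samples, which the labels do not tie to separate animals. BLAST 2.17.0 searched near-identical transcripts (95% over 100 bases). SDs cover sampling and sample spread only.

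The 7 genes and the lists were chosen with earlier results of these data known. All 7 genes are named throughout. Of each other list the 2 genes with the largest absolute log2 fold change among those called are named, and for likeness the 5 genes of highest Pearson's r of log2 CPM (prior count 2). A few of these list genes are not reported here. Ch25h was removed by the filter throughout. Ctsb, Akap9, Ebp and the pseudogenes were named after their values were seen.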

Additional observations from a re-analysis of the deposited data

Results flagged for a closer look

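Over 28 sets of 5 libraries (7 genes in 4 groups), 3 held a library whose gap to the nearest other exceeded 0.71 of the range, Dixon's limit for 5 samples, which chance passes in about 1 of 20 sets. Idi1 was at 42.4 CPM in WT hippocampus 2, above the rest of its group at 37.3 to 38.1 CPM. Cyp51 was at 41.1 CPM in miR-324-null hippocampus 5, below the other libraries of the group, and at 51.2 CPM in WT neocortex 1, likewise the lowest. The null library is the one that was also high in choroid plexus markers. No interaction of genotype and tissue was called among the 7 genes.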

How the results depend on the processing

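The number of the 7 genes called did not change under any of 20 alternatives for hippocampus against neocortex in WT mice beyond the loss of Cyp51 with length corrections (5 of 7), nor under those for the neocortex genotypes, the null mice or the interaction. Between genotypes in the hippocampus the count of 0 rose to 2 with DESeq2, with DESeq2 and a length offset and with all 20 samples in 1 fit, and leaving out single libraries gave 0 to 1, the 1 without miR-324-null hippocampus 5. Leaving out both null libraries numbered 5, chosen after seeing the data, also gave 1, while leaving out both libraries high in choroid plexus markers, likewise chosen afterwards, gave 0. The correlations between pairs of genes without the null libraries numbered 5 were also added after seeing the data.

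Directions turned only for log2 fold changes that were not called. For Cyp51 between genotypes in the hippocampus, at 0.00 in the main fit, the value was -0.14 with a length offset in edgeR or DESeq2 and -0.13 with limma on TPM, and without single libraries it ranged from -0.020 to 0.064. Its interaction was 0.064 (edgeR) and 0.063 (DESeq2) with a length offset and 0.10 with limma. Dhcr7 between the tissues of WT mice was at -0.10 with either length offset and -0.12 with limma, and between genotypes in the neocortex it ranged from -0.082 to 0.051 without single libraries and was 0.051 without both null libraries numbered 5. Fdft1 between genotypes in the neocortex ranged from -0.0027 to 0.060 without single libraries. Idi1 between the tissues of null mice ranged from -0.093 to 0.027 without single libraries, and was 0.027 without both libraries high in choroid plexus markers. The cause of these turns was not tested.

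Same-numbered libraries were not taken as pairs. Across tissues of a genotype their deviations correlated at -0.10 to 0.18, and 5 of 10 correlated best with their own number, as did 2 of 10 across genotypes, at -0.17 to 0.12. With the replicate block the counts of the 7 genes stayed at 0, 0, 6, 1 and 0, while the genes called of all those tested went from 17 to 4 in the hippocampus, from 47 to 30 in the neocortex and from 3 to 0 in the interaction. Each of the 7 genes had at least 383 counts in every library, and the precision was set mainly by the 5 libraries per group.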
